A study of Homo sapiens with 2 samples.

Results

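Chemokine ligand and receptor genes were examined for the signal of GATA1 chromatin immunoprecipitation over their promoters in Meg-01 cells, a human megakaryocytic leukemia line. The members were all genes that the promoter arrays annotate with a symbol beginning with CCL, CXCL, CCR or CXCR and a number, which gave 48 of 17279 annotated genes. There were 24 CCL ligands, 12 CXCL ligands, 9 CCR receptors and 3 CXCR receptors. Symbol decided membership, so relatives that the arrays list under older names (IL8, PF4, PPBP and the receptors IL8RA, IL8RB and BLR1) were not members.

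The cells were untreated and unmodified. DNA recovered with the C-20 antibody, raised against the C-terminus of GATA1, carried Cy5, and DNA recovered with normal goat IgG from the same chromatin carried Cy3. Both were amplified after linker ligation and hybridized together to 2 arrays that tile different promoters (chIP1, with 27 of the members, and chIP2, with 21). Each probe was thus measured in 1 hybridization with 0 replicates and no dye swap, so no test over samples was possible, and the differences below are descriptions of these arrays. The arrays measure DNA and carry no readout of cell type, and RNA was not measured on them.

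Chemokines are small secreted proteins that direct the movement of leukocytes by binding G protein-coupled receptors. The CC and CXC families are named for the spacing of their first cysteines, and many of their genes lie side by side in the genome, having arisen by local duplication. In the bone marrow, stromal CXCL12 holds blood progenitors and guides megakaryocytes through CXCR4, and platelets store chemokines, PF4 and PPBP products among them, in their alpha granules. GATA1 is the zinc finger factor that binds GATA sequences and drives genes of the red cell and megakaryocyte lineages.

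Each value below is the log2 ratio of the IP to the IgG signal, with the median of each array at 0. A window was the mean of 3 adjacent probes, and it was called enriched at 1 or above, which is 2-fold toward the IP, and depleted at -1 or below, which is 2-fold toward the IgG. The SD quoted with a window is that of its 3 probes, which are neighbors on the DNA and not replicates. Over the member probes, ratios of adjacent probes correlated at r = 0.51 on chIP1 (696 pairs) and 0.50 on chIP2 (416 pairs), against 0.53 and 0.51 over all probes. Adjacent probes can lie on the same DNA fragment, so their ratios are not independent measurements. Fragment length was not read from these data, and adjacent centers in a window can lie up to 1000 bp apart. A control probe with 480 spots on each array varied with an SD of 0.048 and 0.044, which covers spot noise but no difference between immunoprecipitations.

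The signals were low. The median IP signal of the member probes was 489 on chIP1 and 508 on chIP2, and their IgG signal was 382 and 424, while the negative control spots lay at 342 and 340 in the IP channel and at 303 in the IgG channel of both arrays. All 788 and 481 member probes were kept, none was saturated, and 782 and 478 of them were well above background in both channels. Member probes spread somewhat more than the kept probes of the arrays as a whole, the SD being 1.14 for those of chIP1 and 1.03 for those of chIP2, against 0.97 on each array. The highest and the lowest windows were both dim. The median brightness stood at percentile 28.1 of the windows of the array for the highest and 31.6 for the lowest, and 21 and 20 of the 46 lay below percentile 25.

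Members often held windows of both signs. An enriched window was found in 30 of the 46 members that had any window (65.2%), against 57.1% of all genes, and a depleted window in 35 (76.1%), against 52.9% of all genes. Both kinds occurred in 23 of the 46 members, against 31.3% of all genes. Enrichment alone was found in 7 members, depletion alone in 12 and neither in 4. Among the 17054 genes with a window these counts were 4396, 3687 and 3635, in the same order. The share with enrichment was thus close to that of all genes, and the share with depletion was the more distant from its background. Members had a median of 25 windows and all genes 23, and among the 7738 genes with a similar number of windows 57.5% were enriched somewhere and 55.2% depleted. The median highest window of the members was 1.28 (1.09 over all genes) and the median lowest window -1.28 (-1.05 over all genes). Counted by window, 114 of 1112 member windows were enriched (10.3%) and 145 depleted (13.0%), against 7.62% and 9.65% of all windows. All 3 probes leaned to the IP in 28 of the 30 highest enriched windows, and each of the 3 passed 2-fold in 14. On the IgG side all 3 leaned to the IgG in 33 of the 35 lowest depleted windows, and each passed 2-fold in 16. These windows were picked for their mean and adjacent probes are correlated, so the agreement in sign is no separate support for them. In 6 members a single window was enriched. With normexp correction for local background 14 members were enriched and 17 depleted (33.1% and 23.9% of all genes). The median highest window of the members was then 0.78, below the 0.83 over all genes. The highest windows of CCL18, CXCR3, CXCL13 and CCL20 were then below 2-fold, while those of CXCR4, CCR6, CCL8, CCL28, CXCL12 and CCL27 stayed above it.

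**Figure D1:**
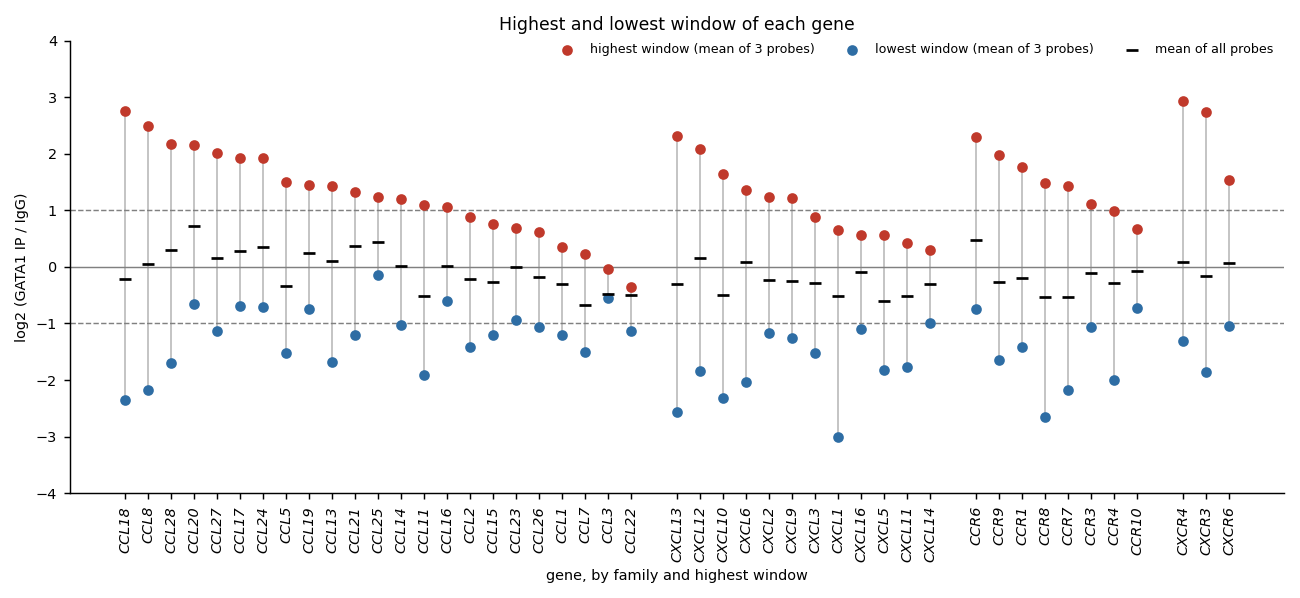
Highest (red) and lowest (blue) mean of 3 adjacent probes and the mean of all probes (black dash) for the 46 genes with a window, as log2 of GATA1 IP over IgG, ordered by family and highest window. Dashed lines mark 1 and -1. CXCR4 reached the highest value (2.93) and CXCL1 the lowest (-3.01). Both lines were crossed by 23 of the 46 genes, against 31.3% of all genes.

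Among the ligands, CCL18, a CC chemokine made by macrophages and dendritic cells, had the highest window. Its 3 probes read 2.97, 3.06 and 2.24, a mean of 2.76 ± 0.45 (SD, n = 3 probes), centered 761 bp downstream of the annotated start, inside the gene at chr17:31416342-31416658. All 3 stood well above 2-fold, and the window ranked at percentile 98.5 among the genes of its array. Another window of the same gene, 734 bp farther downstream, read -2.61, -2.67 and -1.81, a mean of -2.36. CCL18 was therefore among the 10 highest and the 5 lowest members at once, as CXCL13 was. The array design gives these coordinates, and its genome build is not given in the sources used here.

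CCL8, a monocyte chemoattractant also called MCP-2, had the tightest high window of the set. Its probes read 2.44, 2.53 and 2.48, a mean of 2.48 ± 0.041 (SD, n = 3 probes), 1220 bp downstream of the start (chr17:29671244-29671604). The window lay in a run of 5 adjacent enriched windows spanning 1143 bp. CCL8 also held 2 depleted windows of 27, the lowest at -2.175 and 3159 bp upstream. Its neighbors of the monocyte chemoattractant and eotaxin group had lower highest windows. CCL2, the main monocyte attractant, reached only 0.88 at its highest window, CCL7 reached 0.23, and both had depleted windows (-1.41 and -1.50). CCL13 had an enriched window of 1.43 and a depleted one of -1.68. The eotaxin genes, whose products recruit eosinophils through CCR3, were uneven: CCL24 reached 1.93, CCL26 0.63, and CCL11 1.10 from probes at 1.12, -0.85 and 3.03 that did not lean the same way. The CCL11 value was -0.17 when both channels had to be above background. In all, 4 of the 7 genes of this group held an enriched window (57.1%, the same as the share of all genes) and 6 a depleted one (85.7%, against 52.9%).

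The homeostatic ligands guide lymphocytes and progenitors through resting tissue. An enriched window was present in 7 of 8 (87.5%, against 57.1% of all genes) and a depleted one in 5 (62.5%, against 52.9%), and the mean over all probes was positive in 6 of 8 (51.6% of all genes). The homeostatic genes had a median of 27.5 windows, against 23 for all genes. CXCL13, the B cell attractant of lymphoid follicles, showed neighboring stretches of opposite sign. Its highest window held probes at 1.19, 2.37 and 3.38, a mean of 2.31 centered 813 bp upstream (chr4:78789077-78789448), and its lowest held probes at -2.55, -2.26 and -2.90, a mean of -2.57 centered 253 bp upstream (chr4:78789663-78790279). The centers were 560 bp apart. Of the 43 CXCL13 windows, 12 were enriched and 16 depleted. The high window was among the dimmest of its array, at percentile 2.11 of brightness, and the low one stood at 17.7.

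CXCL12, the ligand of CXCR4, read 1.76, 1.87 and 2.61 in its highest window, a mean of 2.08 ± 0.46 (SD, n = 3 probes) at a point 1775 bp into the gene. It belonged to a run of 4 enriched windows over 815 bp, and the 11 probes within 1000 bp of the start averaged 0.43. CCL28, a mucosal ligand of CCR10, held 8 enriched windows, 6 of them in a run of 925 bp at the far upstream edge of its tiled region, with a highest mean of 2.17 at 5334 bp upstream. The 7 probes within 1000 bp of its start were all negative and averaged -1.08. The remaining homeostatic genes reached 1.44 (CCL19), 1.32 (CCL21), 1.23 (CCL25) and 2.01 (CCL27). CXCL14 was the exception, with 0.30 at its highest and -0.99 at its lowest window.

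Among the other CC ligands, CCL20 had 6 of 15 windows enriched and 0 depleted. CCL20 attracts dendritic cells and T cells of mucosal surfaces. Its probes read 1.51, 2.36 and 2.59 in a window centered 139 bp upstream of the start, a mean of 2.16 ± 0.57 (SD, n = 3 probes) at chr2:228503738-228504152. CCL27, the skin T cell attractant of the homeostatic group, had its highest window nearly as close, 194 bp upstream, with probes at 2.68, 2.07 and 1.28 and a mean of 2.01 ± 0.70 (SD, n = 3 probes). Besides CCL20 and CCL18, the 5 other CC ligands reached from 0.35 (CCL1) to 1.197 (CCL14).

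The sequence before the start is shown for the 5 members that RefSeq promoter entries covered and whose highest enriched or lowest depleted window was centered within 300 bp of the annotated start, that is CCL20 and CCL27 (enriched) and CXCL13, CCL22 and CCR9 (depleted). Each run is the 250 bases that precede the RefSeq start in GRCh38.p14, 5′ to 3′ on the strand of the gene, and the RefSeq start need not be the start that the array design used. Capitals mark any of 4 motifs searched on both strands, which were AGATAA and its variant AGATAG together with TGATAA and its variant TGATAG. CCL20 lies on the plus strand at chr2:227813592-227813841, CCL27 on the minus strand at chr9:34662658-34662907, CXCL13 on the plus strand at chr4:77511503-77511752, CCL22 on the plus strand at chr16:57358533-57358782 and CCR9 on the plus strand at chr3:45886293-45886542.
CCL20: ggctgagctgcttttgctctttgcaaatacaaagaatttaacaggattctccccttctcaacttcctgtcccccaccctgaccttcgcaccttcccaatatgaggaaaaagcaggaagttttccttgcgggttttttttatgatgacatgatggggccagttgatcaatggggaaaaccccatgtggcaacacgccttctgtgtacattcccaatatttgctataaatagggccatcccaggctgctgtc
CCL27: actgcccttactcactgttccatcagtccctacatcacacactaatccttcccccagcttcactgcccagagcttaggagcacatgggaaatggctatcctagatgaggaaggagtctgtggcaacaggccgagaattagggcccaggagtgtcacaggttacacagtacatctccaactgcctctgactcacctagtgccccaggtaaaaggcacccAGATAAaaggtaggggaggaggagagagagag
CXCL13: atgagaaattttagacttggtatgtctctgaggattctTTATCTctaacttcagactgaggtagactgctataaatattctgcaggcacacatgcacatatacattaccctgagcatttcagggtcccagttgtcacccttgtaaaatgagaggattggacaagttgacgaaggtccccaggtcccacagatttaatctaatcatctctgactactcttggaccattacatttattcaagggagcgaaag
CCL22: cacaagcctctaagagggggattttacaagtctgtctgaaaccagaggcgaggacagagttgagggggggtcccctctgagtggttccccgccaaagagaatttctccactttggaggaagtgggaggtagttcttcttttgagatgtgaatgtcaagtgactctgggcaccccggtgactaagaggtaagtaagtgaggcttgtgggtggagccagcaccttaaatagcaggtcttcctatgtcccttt
CCR9: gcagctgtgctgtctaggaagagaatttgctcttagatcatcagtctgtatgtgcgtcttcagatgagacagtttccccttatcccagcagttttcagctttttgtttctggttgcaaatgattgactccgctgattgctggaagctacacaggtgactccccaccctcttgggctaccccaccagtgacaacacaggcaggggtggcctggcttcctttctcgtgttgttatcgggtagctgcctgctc
CCL27 held 1 match, AGATAA beginning at position -32 from the start, and CXCL13 held 1 match at position -212, which reads AGATAA on the opposite strand. CCL20, CCL22 and CCR9 held none in this window. A match was thus present in 1 of the 2 enriched and in 1 of the 3 depleted sequences. Of all 27305 RefSeq promoters, searched over the same 250 bases before the start, 22.9% held at least 1 match. An entry was found for 35 of the 48 members (72.9%), fewer than the 80% required for a comparison of motifs or base composition over the set, which is therefore void.

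**Figure D2:**
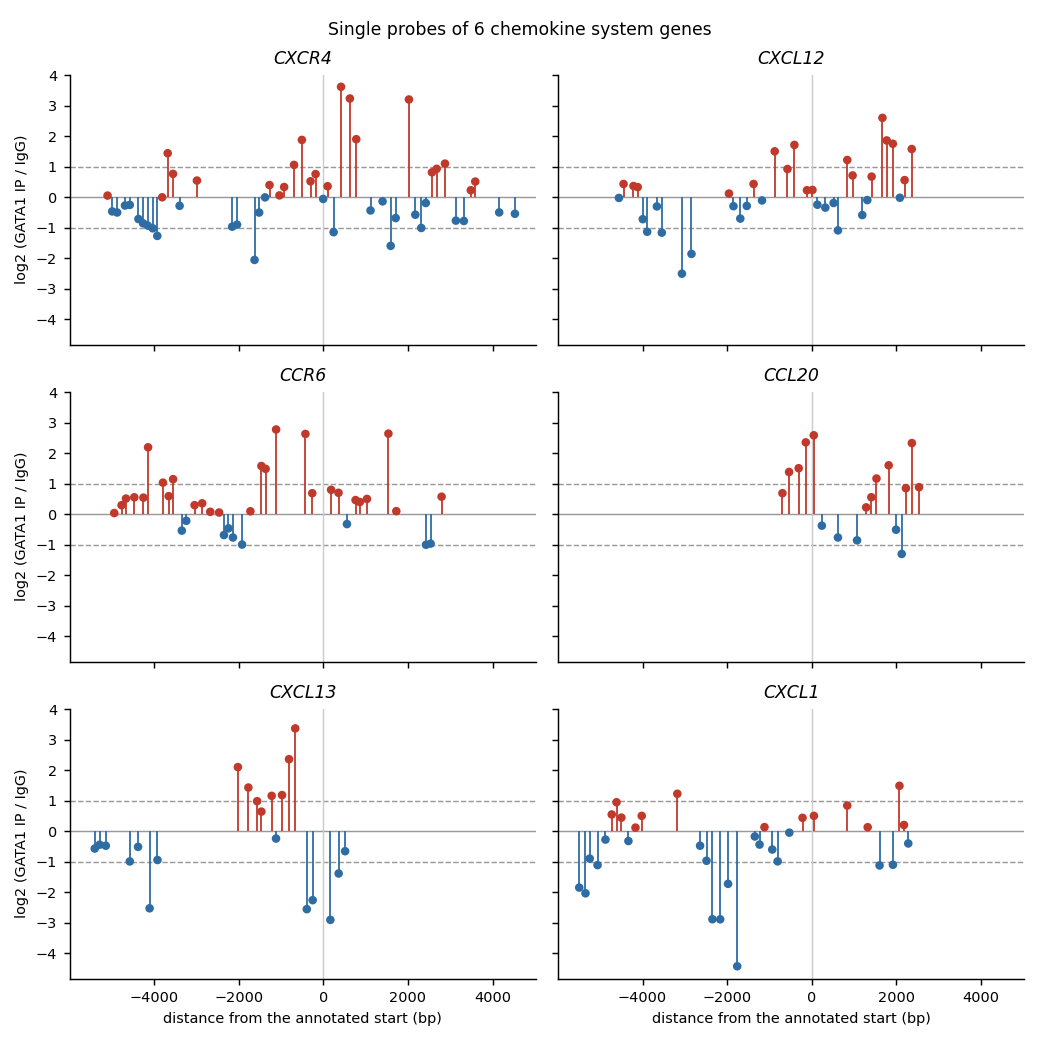
Every kept probe within 6000 bp of the start of 6 genes, as log2 of GATA1 IP over IgG (vertical axis) against distance from the annotated start in bp (negative is upstream). Red probes lean to the IP and blue probes to the IgG, and dashed lines mark 1 and -1. Distances for CXCR4, which has 2 annotated starts, are from the start that more of its probes refer to. The 3 probes of its highest window (1.91, 3.24 and 3.63) lie just downstream of that start, CXCL13 switches sign between its windows at 2.31 and -2.57, and CXCL1 holds the lowest member probe (-4.43).

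The neutrophil-attracting ELR CXC ligands act on the receptors listed here as IL8RA and IL8RB. All 5 had a depleted window (52.9% of all genes) and 2 an enriched one (CXCL6, 1.37, and CXCL2, 1.24), against 57.1% of all genes. CXCL6 differed from the other 4 in that 18 of its 29 probes were positive, with a mean of 0.09, while the means of the others were negative. CXCL1 held the lowest window of all members, with probes at -2.89, -1.72 and -4.43 and a mean of -3.01 ± 1.36 (SD, n = 3 probes), 1977 bp upstream of the start (chr4:75097951-75098412). The window was at percentile 1.05 of brightness, and 8 of the 31 CXCL1 windows were depleted and 0 enriched. The probes within 1000 bp of the start averaged 0.49 for CXCL3, 0.47 for CXCL6, 0.40 for CXCL2 and 0.03 for CXCL1, with CXCL5 at -0.52.

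The interferon-induced ligands CXCL9, CXCL10 and CXCL11, which call activated T cells through CXCR3, had negative means over all probes (-0.24, -0.49 and -0.52). CXCL10 had probes at -2.22, -2.83 and -1.89 in its lowest window, a mean of -2.31 at 747 bp downstream of the start, and all 8 of its probes within 1000 bp were negative, averaging -1.22. It also carried an enriched window of 1.64, but 4906 bp upstream. Over the whole CXCL family the mean of all probes was positive in 2 of 12 genes (16.7%, against 51.6% of all genes). The 2 were CXCL6 (0.09) and CXCL12 (0.16).

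CCL3, CCL4 and CCL5 attract T cells and macrophages to inflamed tissue. CCL5, which is stored in platelets as well as T cells, reached 1.495 with probes at 2.44, 1.31 and 0.74, at a point 1816 bp into the gene. Its lowest window was -1.51, and its 7 probes near the start averaged -0.44. CCL3 had 9 probes and no window past 2-fold (-0.04 at its highest). CCL4 had 6 probes, none in a window, of which 3 lie between CCL3 and CCL4 and are annotated to both. Near-identical copies of CCL3 and CCL4 exist in the genome, so probes there may report more than 1 locus and their values are uncertain.

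The CCR4 ligands CCL17 and CCL22, neighbors on chromosome 16 that attract Th2 and regulatory T cells, stood apart from each other. CCL17 had its highest window 393 bp downstream of the start, with probes at 1.47, 1.91 and 2.42 and a mean of 1.93 ± 0.48 (SD, n = 3 probes), and all 5 of its probes within 1000 bp were positive, averaging 1.33. CCL22 had 0 of 6 such probes positive, with an average of -0.78, and its highest window anywhere was -0.36, at percentile 0.67 of its array. CXCL16, the membrane-bound ligand of CXCR6, ranged from 0.57 to -1.09.

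Of the receptors, 9 of 11 with a window held an enriched one (81.8%, against 57.1% of all genes) and 9 a depleted one (81.8%, against 52.9%). The receptors had a median of 28 windows and all genes 23, and these shares do not allow for that. CXCR4, the receptor of CXCL12 on progenitors and megakaryocytes, had the highest window of all members. Its probes read 1.91, 3.24 and 3.63, a mean of 2.93 ± 0.90 (SD, n = 3 probes), which is 7.60-fold toward the IP, at chr2:136708658-136709064 and at percentile 99.1 of its array. The arrays measure CXCR4 probes from 2 starts that lie 1912 bp apart, and this window was 1285 bp upstream of one and 627 bp downstream of the other. The surroundings were mixed, since 6 of its 48 windows were enriched and 3 depleted, and the lowest (-1.30) lay 2669 bp from the highest. CXCR3, the receptor of CXCL9, CXCL10 and CXCL11, read 4.53, 3.25 and 0.45, a mean of 2.74 ± 2.09 (SD, n = 3 probes), so that 2 probes carried the window. CXCR6 reached 1.54.

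CCR6, the receptor of CCL20, resembled its ligand in having enrichment without depletion. Its highest window held probes at 1.49, 2.78 and 2.64, a mean of 2.31 ± 0.71 (SD, n = 3 probes), 1117 bp upstream (chr6:167505273-167506272). Of its 34 windows 10 were enriched and 0 depleted, 5 of them in a run of 1962 bp, and 27 of its 36 probes were positive. CCR8, a receptor of CCL1, was the contrary case. Its lowest window held probes at -1.05, -2.82 and -4.06, a mean of -2.65 ± 1.52 (SD, n = 3 probes), 928 bp downstream of the start, and the 7 probes within 1000 bp were all negative, averaging -1.52, the lowest of all members. The low window was among the dimmest of its array, at percentile 1.20 of brightness. The 1 enriched window of CCR8 (1.48) lay 3161 bp downstream.

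The inflammatory receptors CCR1 and CCR3 on chromosome 3 and the gut-homing CCR9 had their highest window away from the start. CCR9 had 1.98 at 3998 bp upstream and -1.64 at 99 bp downstream. The high window of CCR9 was dim (percentile 4.99), and its highest value was 0.87 when both channels had to be above background and 0.46 with normexp. CCR1 had 1.77 at 3434 bp upstream and -1.42 at 955 bp downstream. CCR3 reached 1.11, and its lowest window averaged probes of opposite sign (2.58, -3.48 and -2.29). CCR4, the Th2 receptor, stayed just under the threshold at 0.99 in its highest window. Of its 27 windows 5 were depleted, the lowest at -1.997 and 806 bp upstream, and its 9 probes within 1000 bp averaged -0.59. CCR2 was not analysed here. CCR7, which brings T cells to lymph nodes, had 6 of 14 windows depleted, the lowest at -2.17, and 1 enriched window of 1.43, 107 bp downstream of the start. CCR10, the skin-homing receptor, had neither kind. The members next to the thresholds were CCR4 (0.99) below and CCL16 (1.05) above for enrichment, and CXCL14 (-0.99) and CCL14 (-1.03) for depletion.

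Set side by side, ligands and their receptors gave different combinations. CXCL12 and CXCR4 both had enriched and depleted windows, CCL20 and CCR6 only enriched ones, and CCL25 and its receptor CCR9 differed in that CCL25 had 4 of 22 windows enriched and 0 depleted while CCR9 had 3 enriched and 9 depleted of 28. CCL27 had 4 enriched and 2 depleted windows of 34, CCL28 had 8 and 5 of 21, and their receptor CCR10 had 0 of either kind among 16. Over all genes 31.3% held both kinds, and of the 17054 genes with a window 4396 held only enriched ones and 3635 neither. Only some ligand and receptor pairs are given here, as a description of single values.

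Neighboring members were compared by the share of their windows that were called. The ELR ligands on chromosome 4 had 3 of 135 windows enriched (2.22%) and 23 depleted (17.0%). The 6 genes from CCL2 to CCL1 on chromosome 17 had 9 of 161 enriched (5.59%) and 26 depleted (16.1%). The homeostatic CCL27, CCL19 and CCL21 on chromosome 9 went the other way, with 14 of 77 enriched (18.2%) and 3 depleted (3.896%). The 8 genes from CCL5 to CCL4 on chromosome 17, of which CCL4 had no window, were near the background of 7.62% and 9.65%, at 7.07% and 8.08%. Overlapping windows share probes, so the number of independent measurements is smaller than these totals.

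**Figure D3:**
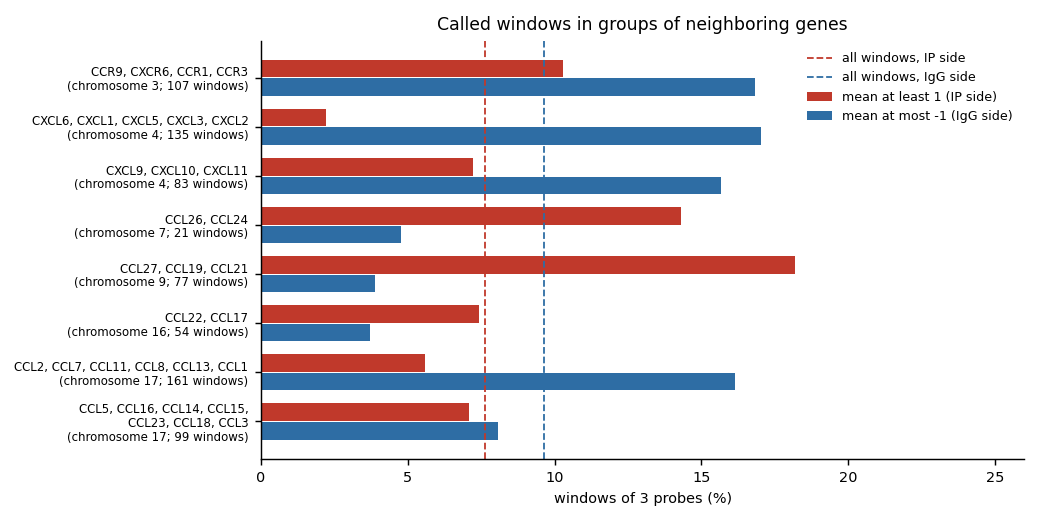
Share of windows of 3 probes (horizontal axis, %) with a mean of at least 1 (red, IP side) or at most -1 (blue, IgG side) in the 8 groups of 2 or more members that lie within 1 Mb of the next, labeled with the genes that had a window. Dashed lines are the shares over all windows of the arrays, 7.62% and 9.65%. The ELR ligands had 2.22% in red and 17.0% in blue, and CCL27, CCL19 and CCL21 had 18.2% and 3.896%.

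The members differed from the rest of the arrays next to the transcription start. Probes from 500 bp upstream to the start had a median of 0.28 for all other genes and -0.05 for the members (99 probes of 44 genes), and from the start to 500 bp downstream the medians were 0.26 and -0.05 (107 probes of 45 genes). Between 4000 and 2000 bp upstream the order was the opposite, at -0.18 for other genes and 0.06 for the members. In the bins on either side of it the members were again lower. They stood at -0.31 against -0.08 from 2000 to 1000 bp upstream and at -0.27 against -0.20 from 6000 to 4000 bp upstream. Downstream they were lower from 1000 to 2000 bp (-0.22 against -0.05) and higher from 2000 to 4000 bp (-0.08 against -0.13). Taken per gene, the mean of the probes within 1000 bp of the start that they are annotated to, for genes with at least 3 such probes, had a median of 0.22 over 16447 genes and was positive in 70.2% of them. For the 45 members the median was -0.06 and 20 were positive (44.4%). With loess or normexp the member median was -0.0080 or -0.0069 and 22 were positive (48.9%), against 69.6% and 73.2% of all genes. Interleukin and interleukin receptor genes, another set of immune genes, were alike in this (median -0.13, 43.2% of 81 positive), and genes of the TNF superfamily were between (0.11, 60.0% of 35).

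**Figure D4:**
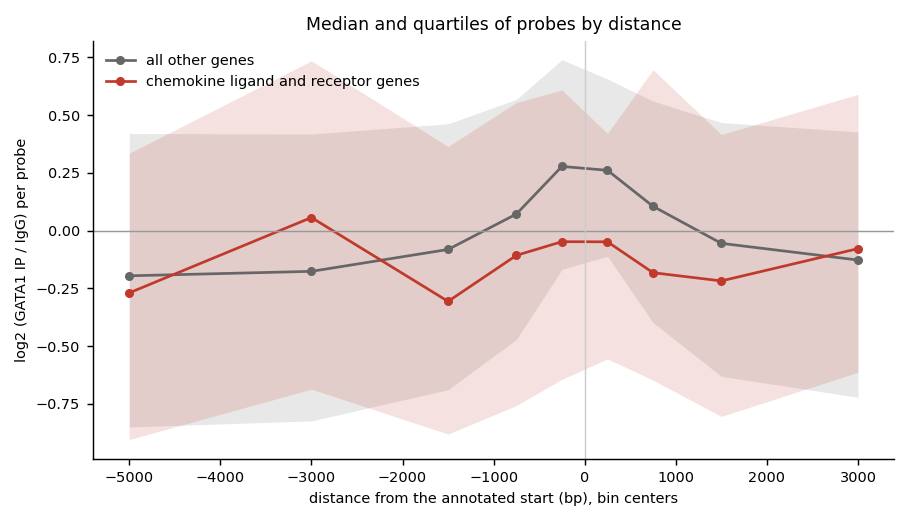
Median (line) and quartiles (band) of log2 of GATA1 IP over IgG per probe against distance from the annotated start in bp, for member genes (red) and all other genes (gray). Other genes peak at 0.28 just upstream of the start, where the members stand at -0.05.

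Within the members the means near the start varied by family. They were positive in 11 of 22 CCL ligands, 6 of 12 CXCL ligands, 1 of 8 CCR receptors and 2 of 3 CXCR receptors. The CCR gene above 0 was CCR6 (0.77, 6 of 7 probes positive). At the top stood CCL17 (1.33) and CCL20 (1.06), followed by CCL18 (0.98), and at the bottom CCR8 (-1.52), CXCL10 (-1.22), CCR1 (-1.18) and CCL28 (-1.08). Neighbors in this order differed by less than the spread of their probes. The probe SD was 0.90 for CCL17 (5 probes), 1.28 for CCL20 (7 probes) and 0.83 for CCR8 (7 probes), and no probe of CCR8, CXCL10, CCR1, CCL28 or CCL22 in this interval was positive.

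**Figure D5:**
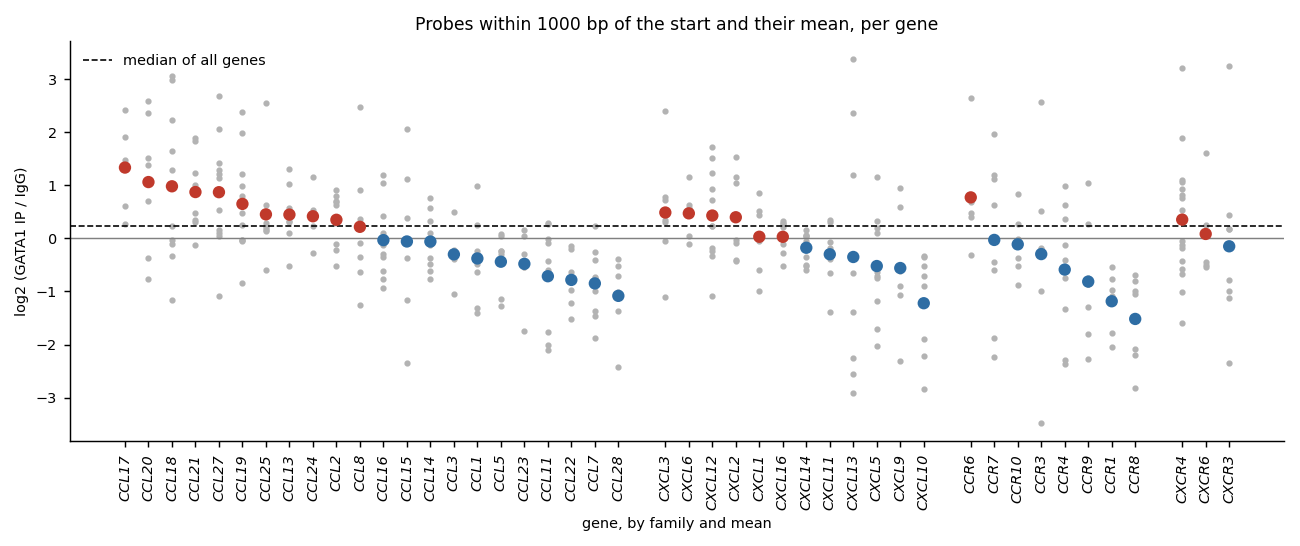
Probes within 1000 bp of the annotated start (gray) and their mean (red above 0, blue below) for the 45 members with at least 3 such probes, as log2 of GATA1 IP over IgG, by family. The dashed line is the median of all genes, 0.22. CCR6 is the only CCR receptor above 0, and 20 of the 45 means are positive, against 70.2% of all genes.

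The genes of the chemokine system outside the symbol rule were counted from a list of 20, of which 15 were on the arrays. Of 14 such genes with a window, 4 held an enriched one (28.6%, against 57.1% of all genes) and 11 a depleted one (78.6%, against 52.9%). Their mean near the start was positive in 3 of the 11 genes with enough probes there (27.3%, against 70.2% of all genes), with a median of -0.22. PF4, a platelet alpha granule chemokine, had probes at 1.56, 1.12 and 1.38 in its highest window, a mean of 1.35 at 1389 bp upstream of the start, and a lowest window of -1.24. PPBP, the platelet precursor of beta-thromboglobulin, had no enriched window (0.40 at its highest, from probes at 0.09, 0.80 and 0.31) and a lowest window of -2.04. The other enriched genes of this list were CCRL1 (2.37), XCR1 (1.69) and CX3CR1 (1.08). Of 18 genes of signaling below chemokine receptors, 13 held an enriched window (72.2%, against 57.1% of all genes) and 11 a depleted one (61.1%, against 52.9%), and their mean near the start was positive in 14 (77.8%, near the 70.2% of all genes). The signaling genes had a median of 33 windows and the 14 genes above 17, against 23 for all genes. The shares of these 2 lists do not allow for the number of windows. IL and IL receptor genes held an enriched window in 56.8% of 88 and TNF superfamily genes in 44.4% of 36, against 65.2% of the members and 57.1% of all genes. A depleted window was found in 61.4% and 41.7% of them, against 76.1% of the members and 52.9% of all genes.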

How the data were processed

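GATA1 IP DNA (Cy5) and IgG DNA (Cy3) of Meg-01 cells were co-hybridized to 2 Agilent promoter arrays. Per the file headers, the deposited intensity values came from Feature Extraction 9.5.3.1, with spatial and multiplicative detrending, linear dye normalization and surrogates for weak spots, but without subtracting local background. Raw mean and background intensities were also deposited, and the log10 ratios that the authors deposited as value tables are those of the scanner output. The aligner does not apply, and the genome build is not given in the sources used here. The study called peaks in commercial software, which was not used.

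Here log2 of processed Cy5 over Cy3 intensity was taken with each array's median at 0. Controls, non-uniform spots and probes that failed the background criterion in both channels were dropped. Windows held 3 adjacent probes with centers within 1000 bp of the next, and a gene took every window holding a probe annotated to it. Named genes are the 10 members with the highest and the 5 with the lowest window, CXCR4, CXCL12, CCL5, PF4 and PPBP, with 1 further receptor not reported here, and other members are given by role and by cluster. The members and lists were chosen with earlier results of these data known. Alternatives used limma 3.58.1 (loess, normexp with offset 50). Python 3.11.15 and R 4.3.3 were used, and the window code was tested on simulated data. With 1 hybridization per probe, the number of arrays limits the precision.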

Additional observations from a re-analysis of the deposited data

How the results depend on the processing

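No paired analysis was possible because no 2 samples measured the same probes. Counts of members called were within 1.5 times the reported 30 and 35 under loess, the value table, either filter on dim probes and removal of the distance trend. Normexp moved them to 14 enriched and 17 depleted members (33.1% and 23.9% of all genes), a 3-fold threshold to 15 and 17 (20.6% and 22.3%), and windows of 5 probes left 22 depleted (33.5%). The median highest window became 1.35 with loess (1.11 over all genes), 0.78 with normexp (0.83) and 2.07 with single probes (1.73). It became 0.87 with 5 probes (0.81 over all genes) and 0.89 within 2000 bp of the start (0.92). With normexp and within 2000 bp the members were thus below all genes. The median lowest window became -1.19, -0.85, -2.05, -0.95 and -1.08 under the same settings, in the same order. Over all genes it was -0.999, -0.72, -1.60, -0.75 and -0.71. The median of the means over all probes, -0.19 as reported, was -0.12 with loess, -0.12 with normexp and -0.13 with the trend removed. Over all genes it was 0.01 as reported, 0.03 with loess, 0.04 with normexp and 0.02 with the trend removed. For the means near the start, the alternatives were added after seeing the data. Their median was -0.0080 with loess and -0.0069 with normexp. Under the other normalizations and filters 20 to 22 of 45 means were positive (69.6% to 73.2% of all genes). With at least 6 probes 18 of 42 were positive (70.2% of all genes), and within 500 bp of the start 20 of 42 (74.3% of all genes). Of 144 values of named genes, 132 kept their side of 2-fold. Normexp took CCL18 (0.90), CXCR3 (0.66), CXCL13 (0.84), CCL20 (0.81), CXCL10 (0.75) and PF4 (0.41) below it. Windows of 5 probes took CCR8 (0.20), CCL5 (0.87) and PF4 (0.89) below it, and single probes took CXCL1 (1.496) above it. Within 2000 bp of the start CCR8 turned to -0.32 and CXCL10 was 0.02. Among other members, requiring both channels above background took CCR9 to 0.87 and CCL11 to -0.17. The cause of these differences was not tested. The dim signals limit all of these ratios.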
